A study of Mus musculus with 8 samples.

Results

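Rab GTPase genes were followed in mouse P19 cells, a pluripotent embryonal carcinoma line, after transcription was blocked. Members were all genes of the deposited table whose symbol is Rab followed by a number and its letters, 57 of 23284 genes. Of these, 44 had a mean level of 1 or more over the 8 conditions and are described in full, out of 11452 genes in the table that passed the same minimum. Levels are FPKM, fragment numbers corrected for transcript length and sequencing depth, so they are per length and can be compared between genes.

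Cells were transfected with a control siRNA (siControl) or with an siRNA against Upf3a (siUPF3A), and after 24 h all of them received actinomycin D, which stops transcription. RNA was taken 0, 15, 105 and 225 min later in each arm. The series asks how transcript stability depends on UPF3A, a factor of nonsense-mediated mRNA decay. Each arm and time has 1 FPKM value per gene; the labels list 2 cultures for each, which the authors combined, so no spread between cultures can be given. The tests below therefore weigh a difference against the disagreement between time points, and a slope against departures of those points from a line. Only a partial knockdown in 1 cell line was examined, and every condition, the control arm at 0 min included, belongs to the actinomycin D series. In a bulk measurement a smaller share of expressing cells and less RNA per cell cannot be told apart.

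Rab proteins are small GTPases of the Ras superfamily that mark membranes and direct vesicle budding, transport, tethering and fusion. They are switched on by exchange factors (GEFs), which load GTP, and switched off by GTPase-activating proteins (GAPs), most of which carry a TBC domain. A lipid anchor, added by Rab geranylgeranyl transferase with the help of an escort protein, holds the active form on the membrane, and GDP dissociation inhibitors extract the inactive form.

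Upf3a itself was lower in the knockdown arm at each time: 13.6, 14.0, 14.0 and 15.0 FPKM in control cells and 5.27, 4.52, 4.76 and 4.16 FPKM in knockdown cells, at 0, 15, 105 and 225 min. The knockdown arm held 33.1% of the control level, the authors' limits were apart at 4 of 4 times, and the mean log2 ratio was -1.42 ± 0.17 (SD over 4 times; exact two-sided sign-flip permutation p = 0.125, the smallest that 4 pairs allow). The related Upf3b stood at 79.6% of control. Of 8 markers of pluripotent embryonal carcinoma, 7 had a mean FPKM of 1 or more, led by Pou5f1 at 2014, and Zfp42 stood at 0.929; their summed level was 2031 to 3421 in control and 2493 to 4258 in knockdown conditions. Of 6 neuron markers, 5 were in the table and 3 passed that level, with sums of 111.5 to 177 and 97.0 to 152, carried by Stmn2 and Tubb3. Endoderm and epithelium markers passed in 3 of 6 cases (Krt8, Krt18 and Cdh1; Alb was at 0.00968), fibroblast markers in 2 of 6 and blood markers in 1 of 5, with Hbb-b1 at 0. FPKM totals ran from 537350 to 923333 and were highest at 225 min in both arms; read depth is unknown. The part of these levels in the Rab results was not tested.

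The Rab set of P19 cells was dominated by a few housekeeping members. Rab7, which directs late endosomes to lysosomes, had the highest mean level at 208 FPKM, followed by Rab1b (ER-to-Golgi transport) at 156, Rab5c (early endosome fusion) at 110, Rab1 (listed as Rab1a in current annotation, also ER-to-Golgi transport) at 76.2 and Rab2a (Golgi) at 58.5. Next in order stood Rab18, which acts at the ER and lipid droplets, at 45.9 FPKM, Rab35, which recycles cargo from the plasma membrane, at 43.6, and Rab8a, which carries post-Golgi vesicles to the cell surface, at 42.7. The values of these last 3 overlapped across conditions, so their order is not resolved. The median over the 44 members was 15.5 FPKM, against 10.9 over all genes tested.

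Rab7 read 180, 156, 206 and 258 FPKM at 0, 15, 105 and 225 min in control cells and 175, 181, 217 and 293 FPKM in knockdown cells. Rab1b read 110, 109, 162 and 227 FPKM in control cells and 111, 116, 158 and 253 FPKM in knockdown cells. Rab5c read 87.0, 84.7, 110 and 141 FPKM in control cells and 91.0, 91.7, 112 and 162 FPKM in knockdown cells. All 3 were highest at 225 min in both arms. Rab1, by contrast, stayed between 67.9 and 77.8 FPKM in control cells and between 77.3 and 85.0 in knockdown cells. Summed over members, Rab mRNA made up 0.203% of all FPKM in knockdown cells at 0 min and 0.153% in control cells at 225 min, which were the highest and the lowest share. The 5 highest members took 45.3% of the Rab sum in control cells at 0 min and 57.0% at 225 min; in knockdown cells they took 46.6% and 59.3%.

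**Figure D1:**
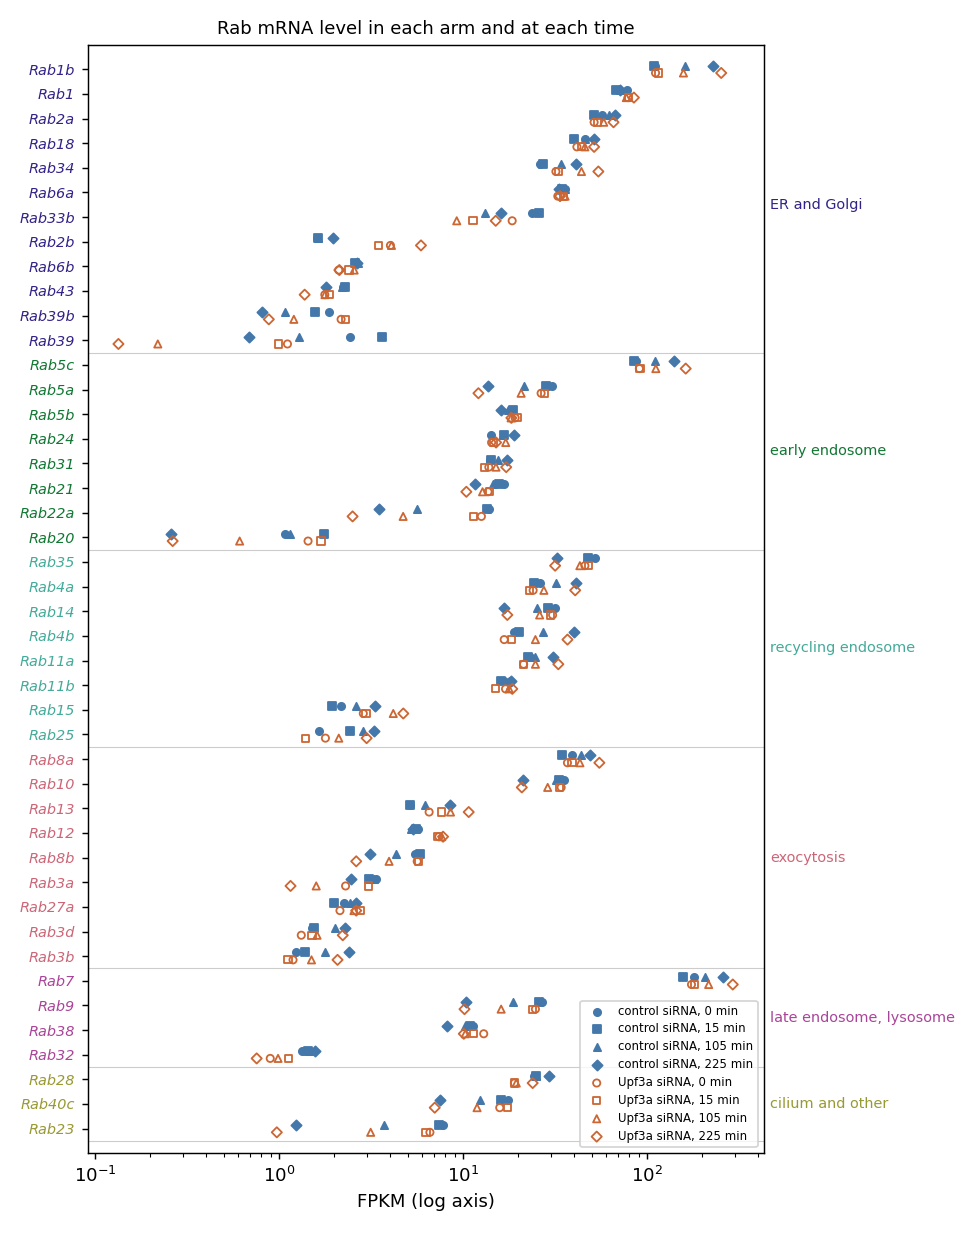
Level of the 44 Rab mRNAs in each condition, in FPKM on a log axis, grouped by the compartment each protein serves; filled blue symbols are control siRNA, open orange symbols Upf3a siRNA, and the symbol shape gives the time after actinomycin D. Rab7 and Rab1b lie at the right, Rab39, Rab20 and Rab32 near 1 FPKM, and the 225 min symbols of Rab23 and Rab22a lie far to the left of their 0 min symbols.

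Stability after the block was read as the slope of log2(FPKM + 1) over hours, fitted in limma over both arms, with Benjamini-Hochberg adjusted p below 0.05 over all genes tested. The added 1 flattens the slopes of members with levels near or below 1 FPKM, so these slopes understate their relative loss. FPKM has no outside standard, so a slope is relative to the bulk of mRNA, that is to the typical gene of the table, and a positive slope does not show that an mRNA increased in the cell. It is not a share of the FPKM total either, which was higher at 225 than at 0 min in both arms. Of the 44 members, 19 rose (43.2%) and 17 fell (38.6%), whereas with all levels scaled to ribosomal protein mRNAs 0 rose and 40 fell. Over the whole set of tested genes 81.3% were called, with 42.7% rising and 38.6% falling, and scaling to ribosomal protein mRNAs moved their median slope by -0.25. The share of Rab genes called was thus that of the table, and the median slope was 0.0042 per hour for members and 0.014 for all genes. Under quantile normalization 46.4% of all genes tested rose and 33% fell, as did 22 and 15 of the 44 members. What follows concerns which members lay on which side. Rising and falling below are relative to the bulk, and 18 of the 19 rising slopes turn negative on the ribosomal scale; the other, Rab1b, is then 0.0096.

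The small group of cilium and other Rabs held the steepest slope, with 2 of 3 falling. Rab23, a negative regulator of Hedgehog signalling that lies on chromosome 1 (chr1:33719887-33742564, plus strand), read 7.75, 7.45, 3.71 and 1.24 FPKM in control cells and 6.61, 6.30, 3.15 and 0.973 FPKM in knockdown cells. Its levels at 105 and 225 min lay below those at 0 and 15 min in both arms, and 16.0% and 14.7% of the 0 min level was left at 225 min. The slope was -0.53 per hour (SE 0.014, adjusted p = 3.2e-07). Rab40c, a Rab with a SOCS box that joins ubiquitin ligases, fell with a slope of -0.30 (SE 0.019, adjusted p = 2.9e-06), while Rab28, a ciliary Rab, rose by 0.07 (adjusted p = 0.0034); without the 225 min conditions the slope of Rab28 was 0.01 (adjusted p = 0.71).

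Of 8 early endosome Rabs, 5 fell and 2 rose, and under quantile normalization 4 fell and 3 rose. Rab22a, which sorts and recycles endosomal cargo (chr2:173659760-173707343, plus strand), read 13.9, 13.5, 5.65 and 3.49 FPKM in control cells and 12.6, 11.4, 4.73 and 2.51 FPKM in knockdown cells. The largest step lay between 15 and 105 min in both arms, the level was lower again at 225 min, and 25.1% and 19.9% was left at 225 min (slope -0.51, SE 0.039, adjusted p = 7.9e-06). Rab5a, an organiser of early endosome fusion, read 30.6, 28.2, 21.5 and 13.7 FPKM in control cells and 26.6, 27.6, 20.7 and 12.1 FPKM in knockdown cells (slope -0.29, SE 0.017, adjusted p = 2.4e-06). Rab20, of endosomes and phagosomes, fell by 0.26 per hour at a mean level of only 1.03 FPKM, just above the minimum, and Rab21, which carries integrins, fell by 0.11. Their adjusted p was 0.069 and 0.062 without the 225 min conditions. At 225 min Rab20 was at 24.2% and 18.4% of its 0 min level in control and knockdown cells. These shares are close to those of Rab22a, although the slope of Rab20, flattened by the added 1, was smaller. Rab5b fell by 0.04, a call that was lost without the 0, 15 or 225 min conditions (adjusted p = 0.082, 0.14 and 0.19). Rab5c rose by 0.21 and Rab31, which works between the Golgi and endosomes, by 0.08; Rab24, an autophagy Rab, was at 0.05 (adjusted p = 0.077).

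Of 8 recycling Rabs, 6 rose and 2 fell, and under ribosomal scaling 0 rose and 6 fell. Rab4b, of the fast recycling route, read 19.0, 20.3, 27.2 and 40.0 FPKM in control cells and 16.8, 18.3, 24.8 and 37.0 FPKM in knockdown cells. It increased at every step in both arms and reached 210% and 221% of its 0 min level (slope 0.28, SE 0.013, adjusted p = 8.9e-07; -0.0042 on the ribosomal scale). Rab4a rose by 0.20, Rab25, an epithelial relative of Rab11, by 0.16, Rab15, which slows recycling, by 0.15, and Rab11a, of the slow recycling route, by 0.14. Rab11b rose by only 0.05, and its adjusted p was 0.13 without the 15 min and 0.17 without the 225 min conditions. Rab14, which works between the Golgi and recycling endosomes, fell by 0.21 and Rab35 by 0.16; Rab35 fell by 0.07 without the 225 min conditions (adjusted p = 0.13).

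Of 12 tested ER and Golgi Rabs, 5 rose and 3 fell. Rab1b (chr19:5099205-5107072, minus strand) had the most positive slope of any Rab gene, 0.30 per hour (SE 0.015, adjusted p = 1.5e-06), and stood at 207% and 228% of its 0 min level at 225 min. Rab34, a Golgi Rab needed for cilium formation, rose by 0.19, Rab2b by 0.09, Rab2a by 0.08 and Rab18 by 0.07. The last 3 were not called without the 225 min conditions (adjusted p = 0.58, 0.051 and 0.28), and Rab2a and Rab18 were at -0.017 and -0.0059 under quantile normalization. Rab39, which has been placed in autophagy and at the Golgi, fell by 0.30, or by 0.46 without the 225 min conditions. At 225 min it was at 28.4% and 12.1% of its 0 min level in control and knockdown cells, and the added 1 flattens its slope. Rab39b, a neuronal Rab encoded on the X chromosome, fell by 0.20, and Rab43, of ER-to-Golgi traffic, by 0.06 (adjusted p = 0.70 without the 225 min conditions; 0.056 under quantile normalization, a rise). Rab1, Rab6a, Rab6b and Rab33b were not called, with slopes of 0.0069, -0.01, 0.00014 and -0.10.

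Of 9 tested exocytosis Rabs, 4 rose and 3 fell, and under quantile normalization 6 rose and 2 fell. Rab13 (tight junction traffic) rose by 0.16, Rab3b by 0.15, Rab8a by 0.13 and Rab3d by 0.11; Rab3b and Rab3d belong to the group that docks secretory vesicles. Rab8b fell by 0.22, Rab10, which delivers cargo to the plasma membrane, by 0.18, and Rab3a, the synaptic vesicle Rab, by 0.14. Without the 225 min conditions Rab10 fell by 0.095 and Rab3a was not called (adjusted p = 0.18); under quantile normalization Rab3a was at -0.023 (adjusted p = 0.58). Rab12 and Rab27a were at 0.0015 and 0.04 and were not called. Among late endosome, lysosome and melanosome Rabs, Rab7 rose by 0.18, though by 0.0034 under quantile normalization (adjusted p = 0.83). Rab9, which returns mannose 6-phosphate receptors from late endosomes to the Golgi, fell by 0.34 (SE 0.015, adjusted p = 8.5e-07). It read 26.8, 26.0, 18.8 and 10.4 FPKM in control cells and 24.8, 24.0, 16.1 and 10.2 FPKM in knockdown cells, with the lowest level at 225 min in both arms. Rab38, a melanosome Rab, fell by 0.09 (0.02 under quantile normalization, adjusted p = 0.35) and its partner Rab32 was at -0.0093.

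By the authors' own limits, which are wide (a median of 31.7% to 32.7% above the FPKM of members), 6 members ended lower at 225 than at 0 min in both arms: Rab22a, Rab23, Rab39, Rab40c, Rab5a and Rab9. Among all genes tested 17.1% did so. Rab1b and Rab4b ended higher by the same measure, as did 2.97% of all genes.

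**Figure D2:**
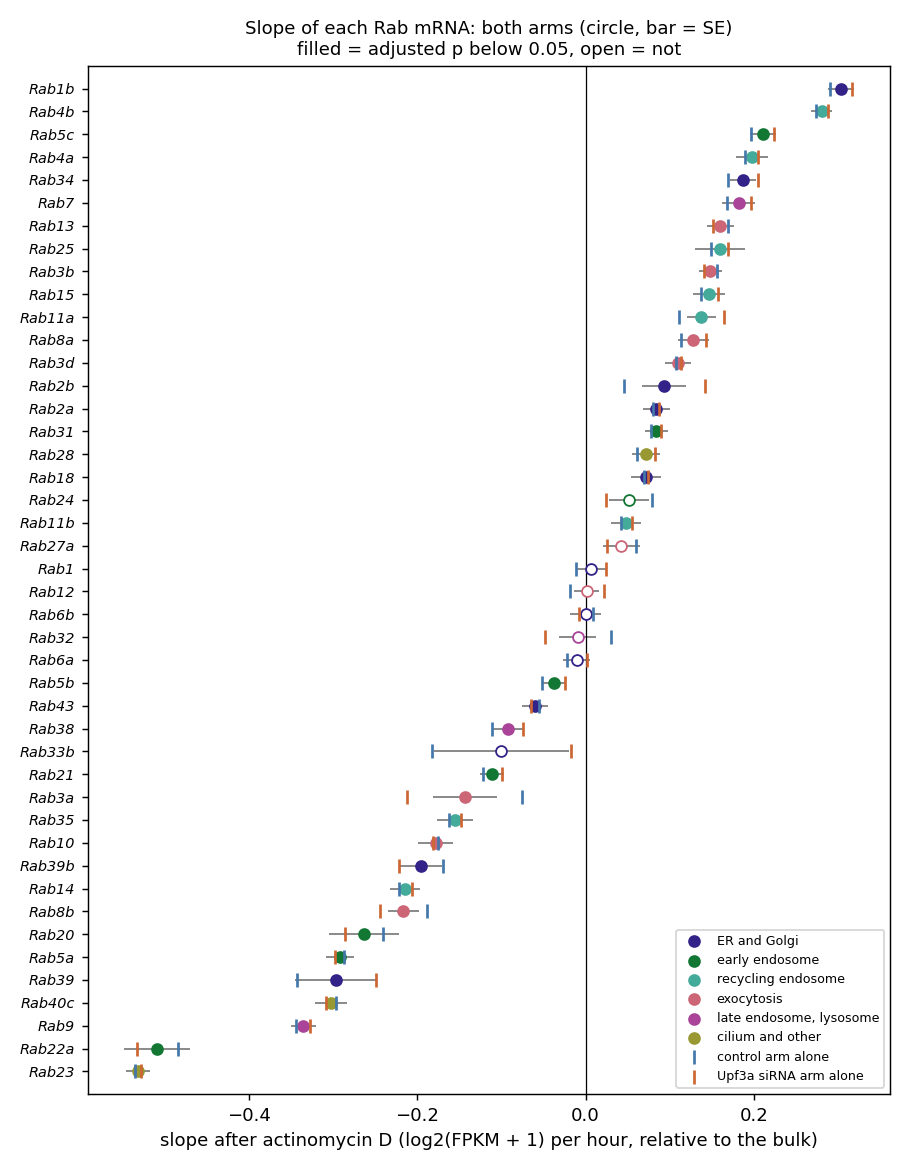
Slope of each Rab mRNA after actinomycin D, in log2(FPKM + 1) per hour relative to the bulk; circles are the fit over both arms with its SE, filled where adjusted p is below 0.05, coloured by compartment, and ticks are the slopes of each arm alone. Slopes run from -0.53 (Rab23) to 0.30 (Rab1b), and on the ribosomal scale 18 of the 19 positive calls turn negative.

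Close relatives did not always lie on the same side. Among 13 pairs of tested members that share a number, 5 had a rising and a falling member, 4 rose together, 2 fell together, and in 2 pairs at least 1 member was not called. Some genes belong to more than 1 pair, so the count is a description. Exons of Rab2b, Rab3a, Rab4b, Rab5a and Rab6a overlap those of another protein-coding gene, and the part of these overlaps was not tested. The difference in slope between relatives was not tested, and under ribosomal scaling the rising member of each opposed pair also had a negative slope. The Rab5 genes, whose products share the early endosome, gave the widest gap. Rab5a made up 0.351 of the Rab5c level at 0 min and 0.0974 at 225 min in control cells, and 0.292 and 0.0747 in knockdown cells. This ratio within a condition is the same whatever factor scales that condition, and it was lower at 225 than at 0 min in both arms. Rab5b lay between them, at 0.213 of Rab5c at 0 min and 0.114 at 225 min in control cells and at 0.211 and 0.113 in knockdown cells.

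The Rab8 genes, which drive exocytosis and cilium growth, separated too. Rab8a stood at 7.14 times Rab8b at 0 min and at 15.7 times at 225 min in control cells, and at 6.56 and 21.0 times in knockdown cells. Rab3a went from 2.70 to 1.02 times Rab3b in control cells and from 1.93 to 0.555 times in knockdown cells. Rab1 went from 0.707 to 0.313 times Rab1b in control cells and from 0.708 to 0.335 times in knockdown cells. In each of these pairs the ratio moved the same way in both arms. Rab4a went from 1.37 to 1.03 times Rab4b in control cells and from 1.44 to 1.10 times in knockdown cells, although both genes rose. Rab6a and Rab6b, neither called, had ratios of 12.4 to 15.8.

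**Figure D3:**
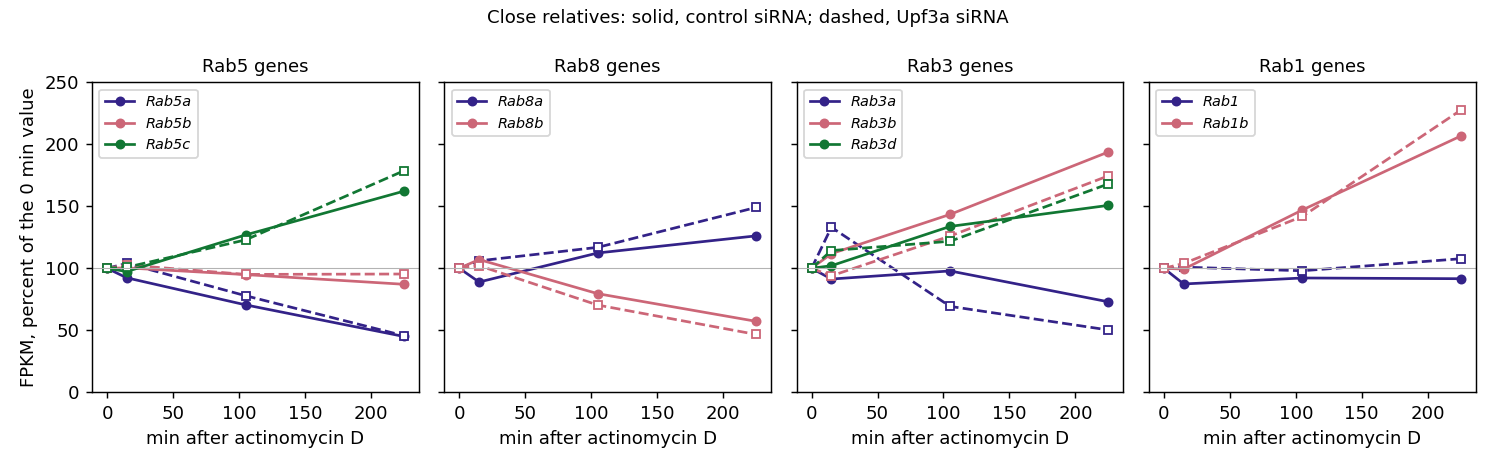
Level of Rab5, Rab8, Rab3 and Rab1 relatives as a percent of each arm's 0 min FPKM against minutes after actinomycin D; solid lines and filled circles are control siRNA, dashed lines and open squares Upf3a siRNA. At 225 min Rab5a was at 45.0% and 45.6% and Rab5c at 162% and 179%; percentages are relative to the bulk, and the positive slopes turn negative, or near 0 for Rab1b, when scaled to ribosomal protein mRNAs.

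Since decay signals often lie in the 3′ UTR, the UTRs of the members were read from GENCODE vM21 (GRCm38, the mm10 build); all 44 had an entry. Their median length was 1963 bases, against 995 bases for all tested genes, with 2200 bases in falling and 1329 bases in rising members. Pumilio proteins, which shorten the life of mRNAs, bind UGUA-type sites, searched here as TGTANATA on the transcript strand. The motif was in 9 of 17 falling members (52.9%), 4 of 19 rising members (21.1%) and 5 of 8 that were not called. Over all tested genes with a 3′ UTR it was in 25.3%, in 38.5% of falling and in 13.6% of rising genes. Longer UTRs hold more matches by length alone, and a match is a description, not a binding site shown to be used. The first match in each of the 9 falling members is printed to show the shared stretch and its differing surroundings; capitals mark the motif.
Rab22a: ataaattaTGTAAATAcattaata
Rab39: agatttttTGTACATAtgtaatcc
Rab5a: agctgtacTGTAAATAgagtactg
Rab8b: tgctaaatTGTATATAatttgagc
Rab14: ctggtgtgTGTATATAtttacaaa
Rab35: aaccagttTGTACATAgtgtatat
Rab3a: tcccacccTGTACATAgctccacc
Rab21: cctactgtTGTAGATAggaaatag
Rab5b: tacttcccTGTAAATAcgtataag

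On mm10 the Rab22a window is chr2:173701953-173701976 (plus strand), that of Rab39 chr9:53685973-53685996 (minus), that of Rab5a chr17:53507213-53507236 (plus) and that of Rab8b chr9:66845465-66845488 (minus). Rab14 was read at chr2:35180423-35180446 (minus), Rab35 at chr5:115646022-115646045 (plus) and Rab3a at chr8:70758198-70758221 (plus). Rab21 was read at chr10:115288804-115288827 (minus) and Rab5b at chr10:128678218-128678241 (minus). All 9 windows lie in the 3′ UTR of the gene named. Genes with a 3′ UTR of similar length, 0.8 to 1.25 times, held the motif in 67.1% of cases for Rab22a, 38.1% for Rab39, 26.6% for Rab5a and 13.9% for Rab3a. For Rab8b it was 52.8%, for Rab21 51.0%, for Rab5b 39.8%, for Rab14 37.1% and for Rab35 35.2%. The 2 steepest members differed in this: Rab22a holds 2 matches in a UTR of 6224 bases, and Rab23 holds 0 in 3172 bases. The AU-rich pentamer ATTTA was in 90.9% of members and 66.7% of all tested genes, and the longer TATTTAT, which contains it, in 40.9% and 28.1%. The UTRs of members are longer, and per kb ATTTA was no denser, at 1.71 in members and 1.82 over all tested genes. For TATTTAT the density was 0.34 and 0.29 per kb. ATTTA was in 94.1% of falling, 84.2% of rising and 100% of uncalled members.

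Across the 44 members the slope had a Spearman rho of -0.31 with 3′ UTR length and 0.45 with UTR GC content; across 10868 tested genes these were -0.34 and 0.22. These are descriptions across genes of the same 8 conditions, and length, GC content and motif count move together.

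**Figure D4:**
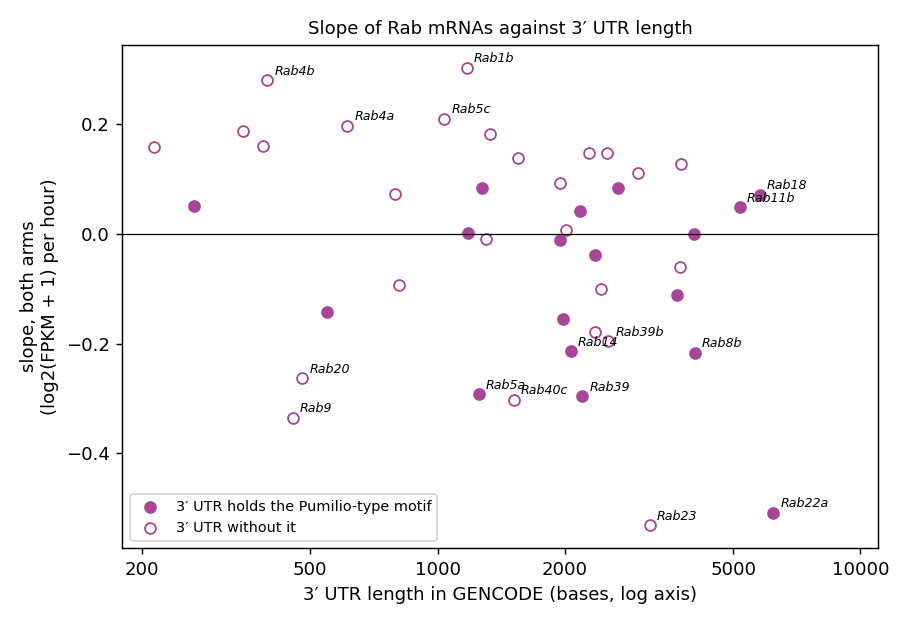
Slope of each of the 44 Rab mRNAs (log2(FPKM + 1) per hour, both arms, relative to the bulk) against 3′ UTR length in bases on a log axis; filled circles hold the Pumilio-type motif and open circles do not. Rab22a, with the longest UTR at 6224 bases, lies near Rab23 at the bottom, while Rab18 and Rab11b, also with long UTRs and the motif, lie just above 0; with levels scaled to ribosomal protein mRNAs both have negative slopes.

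The comparison of the arms asked which Rab mRNAs differed in level with Upf3a siRNA. With time as a factor, limma called 18 of 44 members (40.9%): 6 stood higher with Upf3a siRNA and 12 lower. The table as a whole gave 48.4% called, with 26.1% higher and 22.3% lower. The difference had the same sign at all 4 times for 9 members on the higher and 17 on the lower side, as against 31.8% and 28.6% of all genes. The median difference was -0.05 for members and 0.0046 for all genes, and the median absolute size was 0.11 and 0.14. Rab genes as a whole were thus called no more often than the table, and the split depends on the scale: with levels scaled to ribosomal protein mRNAs 13 were higher and 5 lower. Without the 105 min conditions 5 were higher and 7 lower.

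Among ER and Golgi Rabs, 3 were higher and 4 lower of 12 tested, and they held both extremes. Rab2b, a Golgi Rab close to Rab2a, read 1.62, 1.64, 1.63 and 1.96 FPKM in control cells and 4.03, 3.49, 4.09 and 5.91 FPKM in knockdown cells. Every knockdown value lay above every control value. The difference was 0.97 (SE 0.072, adjusted p = 1.1e-04), a 1.96-fold rise in FPKM + 1. Mean FPKM of Rab2b was 1.71 in control and 4.38 in knockdown cells, and the added 1 shrinks the difference at such levels. Its relative Rab2a was at -0.05 (adjusted p = 0.38). Rab2b (chr14:52261759-52279545, minus strand) shares its locus in the table with Mettl3 and Tox4, and its exons overlap those of Tox4 on the opposite strand. The small RNA gene Gm23758 lies inside its span. Mettl3 went from a mean of 24.5 FPKM in control to 21.7 in knockdown cells and Tox4 from 15.2 to 17.4. Whether the libraries kept strand is not given, and the part of these neighbours in the Rab2b value was not tested. The authors' limits for Rab2b overlapped between arms at all 4 times.

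Rab39 (chr9:53684110-53706232, minus strand) lay at the other end. It read 2.42, 3.63, 1.28 and 0.688 FPKM in control cells and 1.11, 0.990, 0.219 and 0.134 FPKM in knockdown cells. The knockdown value was below the control value at each time, and the authors' limits were apart at 15, 105 and 225 min. The difference was -0.85 (SE 0.098, adjusted p = 5.5e-04) with a pseudocount of 1, and -1.67 with 0.1, since its level is low. Its relative Rab39b was at 0.16 (adjusted p = 0.054). Rab39 and Rab33b were the members with limits apart in the lower direction, 2 of 44, against 0.908% of all genes; in the higher direction it was 0 of 44 against 2.05%.

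Rab33b, a Golgi Rab that binds the autophagy factor ATG16L1, read 23.6, 25.8, 13.1 and 16.0 FPKM in control cells and 18.5, 11.3, 9.25 and 15.1 FPKM in knockdown cells. The arms overlapped, and the gap was widest at 15 min, where alone the limits were apart. Its difference was -0.50 (SE 0.15, adjusted p = 0.026), -0.29 without the 15 min conditions, and not called without the 0 or the 105 min conditions (adjusted p = 0.054 and 0.070). Rab34 was higher by 0.32 (adjusted p = 0.0011), with 26.3, 27.4, 34.0 and 41.3 FPKM in control cells and 32.0, 33.0, 44.1 and 54.5 in knockdown cells. Rab43 was lower by a difference of -0.21. Rab1 at 0.15 (adjusted p = 0.045) was not called without the 15, 105 or 225 min conditions (adjusted p = 0.16, 0.087 and 0.13), and Rab6b at -0.14 was not called without any of the 4 times (adjusted p = 0.055 to 0.15).

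Exocytosis Rabs gave 2 higher and 2 lower of 9 tested. Rab12, which sends transferrin receptor to degradation, read 5.70, 5.52, 5.22 and 5.36 FPKM in control cells and 7.40, 7.29, 7.67 and 7.80 FPKM in knockdown cells. The arms did not overlap, and the slope over time was not called (difference 0.40, SE 0.046, adjusted p = 5.2e-04). Rab13 read 5.14, 5.18, 6.20 and 8.48 FPKM in control cells and 6.55, 7.67, 8.56 and 10.7 FPKM in knockdown cells (difference 0.38, SE 0.048, adjusted p = 8.4e-04). Rab3a was lower by a difference of -0.45 (adjusted p = 0.014), with near-equal values of 3.07 and 3.06 FPKM at 15 min. It was not called without the 105 or the 225 min conditions (adjusted p = 0.059 for each). Rab3a shares its locus in the table with Mpv17l2, and their exons overlap on opposite strands. Mpv17l2 had means of 13.4 FPKM in control and 14.9 in knockdown cells and rose by 0.23 per hour. The part of this neighbour in the Rab3a value was not tested. Rab3b at -0.13 was not called without the 15, 105 or 225 min conditions (adjusted p = 0.16, 0.14 and 0.095). Rab3d was at -0.09 (adjusted p = 0.14).

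Most endosomal Rabs were not called. Of 8 early endosome Rabs, Rab22a (-0.23, adjusted p = 0.0073) and Rab21 (-0.18, adjusted p = 0.010) were lower and 0 were higher, while on the ribosomal scale 2 were higher and 0 lower. Of 8 recycling Rabs, Rab15 was higher and Rab4b lower. Rab15 read 2.17, 1.93, 2.63 and 3.31 FPKM in control cells and 2.87, 2.97, 4.18 and 4.74 FPKM in knockdown cells; the knockdown value was above the control value at each time, and the difference was 0.41 (SE 0.049, adjusted p = 6.0e-04). Rab4b at -0.14 was not called without the 0, 15 or 105 min conditions (adjusted p = 0.081, 0.087 and 0.072).

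In the late endosome and melanosome group Rab32 was lower, with 1.33, 1.44, 1.45 and 1.57 FPKM in control cells and 0.896, 1.13, 0.989 and 0.756 FPKM in knockdown cells. The arms did not overlap (difference -0.34, SE 0.061, adjusted p = 0.0037), but all values lie close to the minimum level. Rab38, which shares melanosome work with Rab32, was at 0.13 (adjusted p = 0.093). Of the cilium group Rab28 (-0.33, SE 0.041, adjusted p = 7.1e-04) and Rab23 (-0.19, adjusted p = 0.0057) were lower. Rab28 read 24.4, 25.0, 24.8 and 29.2 FPKM in control cells and 19.0, 19.1, 19.5 and 23.9 FPKM in knockdown cells, with no overlap between the arms. On the ribosomal scale Rab21, Rab22a, Rab23, Rab33b, Rab3b, Rab4b and Rab6b kept a negative difference but were not called, with values from -0.42 (Rab33b, adjusted p = 0.060) to -0.06 (Rab4b, adjusted p = 0.35).

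Transcripts that GENCODE marks as targets of nonsense-mediated decay were annotated for 10 of the 44 members (22.7%), against 28.9% of tested genes with an entry. Rab2b has 3 such transcripts. Of those 10 members, Rab2b was higher and 4 were lower (Rab22a, Rab23, Rab32 and Rab4b); of the 34 without, 5 were higher and 8 lower. Among all tested genes 26.9% of those with and 25.8% of those without such a transcript were higher, and 20.7% and 22.9% were lower. FPKM values here are per gene, so transcripts of a gene were not told apart.

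**Figure D5:**
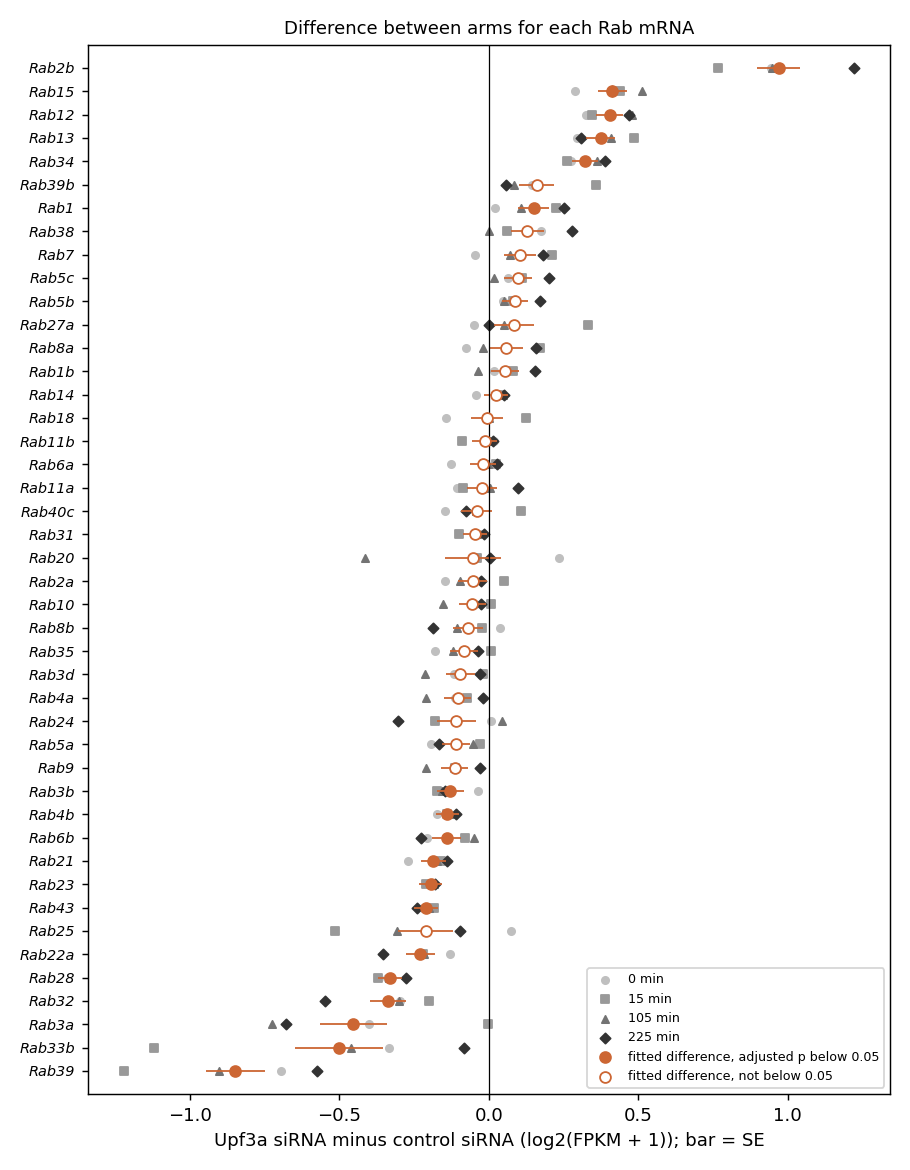
Difference between Upf3a siRNA and control siRNA for each Rab mRNA in log2(FPKM + 1); large circles are the limma estimate with its SE, filled where adjusted p is below 0.05, and small grey symbols the 4 time-matched differences. Rab2b at 0.97 and Rab39 at -0.85 lie apart from the others, most of which lie within 0.3 of 0; ribosomal scaling moves the median of all genes up by 0.077.

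Whether the rate of loss differed between arms was tested with the arm-by-hours term. No Rab gene passed, 0 of 44, as against 1 of all genes tested (0.00873%); at an unadjusted p below 0.05 there were 2 members, and 6.65% of all genes. These were Rab2b, with slopes of 0.05 per hour in control and 0.14 in knockdown cells (difference 0.10, adjusted p = 0.72), and Rab32, with 0.03 and -0.05 (difference -0.08, adjusted p = 0.73). Rab3a had -0.07 and -0.21, and Rab33b -0.18 and -0.02, neither called. With 2 residual degrees of freedom the test recovered 38% of simulated differences of 0.3 per hour and 0% of those of 0.1. The largest differences among members, 0.17 for Rab33b and -0.14 for Rab3a, lie between these sizes.

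The 13 members below a mean of 1 FPKM were not tested. Rab36 (a Golgi Rab) at 0.881, Rab26 (secretory granules) at 0.747, Rab33a at 0.739 and Rab30 at 0.697 FPKM lay just below the minimum, as Rab20 at 1.03, Rab32 at 1.19 and Rab39 at 1.31 lay just above it. Rab30, a Golgi Rab on chromosome 7 (chr7:92741603-92844535, plus strand), read 1.07, 0.987, 0.620 and 0.485 FPKM in control cells and 1.08, 0.705, 0.370 and 0.253 FPKM in knockdown cells. Its lowest level was at 225 min in both arms, at 45.3% and 23.4% of the start. The annotation used here lists no small RNA inside Rab30, whereas Snord60 lies inside the span of Rab26 and Gm23758 inside that of Rab2b. Rab7l1, now named Rab29 and known as a partner of LRRK2, stood at 0.486 FPKM, Rab37 (secretory granules) at 0.392 and Rab17 (epithelial transcytosis) at 0.363. Rab19, Rab27b, Rab3c, Rab40b, Rab44 and Rab9b were all below 0.1, down to 0.00417 for Rab44.

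The machinery that acts on Rab proteins was examined in 5 lists. For comparison with the counts below, 26.1% of all genes tested were higher, 22.3% lower, 42.7% rising and 38.6% falling. With ribosomal scaling 33.9% of all genes tested were higher, 11% lower, 0.402% rising and 93.4% falling. Quantile normalization gave 46.4% rising and 33% falling, and median-of-ratios scaling 23% higher and 26.6% lower. Of 8 genes for prenylation, escort and extraction, all tested, 2 stood higher with Upf3a siRNA and 3 lower. Rabggta, the alpha subunit of Rab geranylgeranyl transferase, was higher by 0.65 (9.81 to 16.0 FPKM, means over 4 times), and Chml, a Rab escort protein, was lower by a difference of -0.65 (5.01 to 2.79 FPKM). Rabggtb, the beta subunit of the same enzyme, was at 0.014 (adjusted p = 0.84), and the escort protein gene Chm at 0.0036 (adjusted p = 0.97). Rabac1, a prenylated Rab acceptor, was higher by 0.22 and rose over time by 0.31 per hour, and Rabif, a Rab-binding chaperone, was lower (-0.25) and fell by 0.26 per hour. Over time 4 of the 8 rose and 3 fell, and 0 rose and 7 fell on the ribosomal scale.

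Of 40 tested GEF genes, 8 were higher and 13 lower, with a median of -0.08; on the ribosomal scale 11 were higher and 6 lower. Dennd4a, a DENN-domain GEF, went from 4.62 to 2.15 FPKM (-0.83), and Madd, the GEF of Rab3 and Rab27, from 5.71 to 3.53 (-0.57). Of the genes for the Rab7 GEF, Mon1a was higher by 0.55, Mon1b was at -0.38 and Ccz1 at 0.07 (adjusted p = 0.19). Of 34 tested TBC-domain GAP genes, 9 were higher and 7 lower, with a median of -0.05; with median-of-ratios scaling 8 were higher and 11 lower. Tbc1d2b went from 0.939 to 2.79 FPKM (0.96), Tbc1d14, which regulates autophagy, from 6.52 to 12.3 (0.84), and Tbc1d7, a subunit of the TSC complex, from 24.1 to 16.5 (-0.53).

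Of 54 tested effector genes, 13 were higher and 14 lower (13 and 9 on the ribosomal scale). Myo5a, a myosin that carries Rab27 and Rab11 vesicles, was higher by 0.65, Ocrl, a phosphoinositide phosphatase, by 0.52, and Lrrk2, a kinase that phosphorylates Rab proteins, was lower (-0.46). Effectors also gave 26 falling and 14 rising slopes (16 and 24 under quantile normalization), with Rilpl1 at -0.45 per hour, and Rabgap1 among the GAP genes fell by 0.40. The last list, of Rab-like and other small GTPases, gave 12 higher and 2 lower of 25 tested. Its slopes were 18 rising and 3 falling (0 and 23 on the ribosomal scale, 10 and 6 under quantile normalization). Arl1, a GTPase of the Golgi, went from 36.1 to 58.1 FPKM (0.67), and Rabl3 from 21.8 to 16.0 (-0.42). The median difference of that list was 0.10, against 0.0046 for all genes tested and -0.05 for the Rab genes; whether these lists differ from each other was not tested.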

How the data were processed

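Total RNA of 8 conditions (2 siRNA arms, 4 times) was sequenced. Per the submitters' processing notes, TopHat2 and Cufflinks were used with mm10; versions, annotation and strand protocol: not given in the sources used here. Per the file headers, the deposited values are FPKM, 1 for each gene in each condition, with a lower and an upper limit. The authors combined 2 cultures per condition; how is not stated. FPKM is not a count, and depth is unknown.

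The scale was log2(FPKM + 1); the 11452 genes whose mean FPKM reached 1 were fitted in limma 3.58.1 (R 4.3.3, eBayes without trend), with Benjamini-Hochberg adjustment over all of them and a threshold of 0.05. The arm difference used arm and time as a factor (3 residual degrees of freedom), the slope arm and hours (5), and the slope difference arm, time as a factor and arm by hours (2). Residuals of the arm fit measure disagreement between times. Those of the slope fit measure departures from a line of the same slope in both arms. Those of the slope-difference fit measure departures of the arm difference from a line. None measures disagreement between cultures. Python 3.11.15 was used for all else.

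Members and lists were chosen with earlier results of these data known. Named members were the 8 highest by mean level, the 6 largest arm differences and slopes in each direction, the largest called difference per role, the 4 largest slope differences in each direction, those with limits apart at 2 or more times, and Rab30; other members were named to account for all. From each regulator list up to 4 genes by moderated t of the difference and 2 by that of the slope were eligible, and some are not reported. Coordinates, 3′ UTRs and decay-target transcripts came from GENCODE vM21 (GRCm38), matching 57 of 57 members and 98.9% of tested genes; Rab1 and Rab7l1 were matched through RefSeq synonyms.

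The fits were tested on simulated data for 11452 genes with 200 changed. Of arm differences of 0.5 and 1, 82% and 97% were recovered; of slopes of 0.1 and 0.3 per hour, 65% and 96%; of slope differences of 0.1 and 0.3, 0% and 38%. False calls made up 2.7%, 5.8% and 5.0%. The simulated noise was independent around a flat profile, with the spread of the fit that has time as a factor. It held no curvature over time and no shift of a whole condition. Only 200 genes changed, while 48.4% and 81.3% of genes were called for arm and slope here. These rates therefore need not hold for the data. Alternatives were other pseudocounts, filters and scalings, limma with trend and robust estimation, and leaving out each time.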

Additional observations from a re-analysis of the deposited data

Results flagged for a closer look

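Among 44 tests for a time point that stands apart from the other 3 in the arm difference, 2 were positive, and chance gives about 1 in 20. For Rab11b the log2 ratio was -0.0896 at 15 min, with the other times at 0.0048 to 0.018. For Rab14 it was -0.0413 at 0 min, with the other times at 0.04 to 0.05. Neither gene was called in the arm comparison, and both gaps are small against the authors' limits.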

How the results depend on the processing

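No arm call of a member changed sign under any alternative run. Rab33b, Rab3b and Rab6b were not called with trend and robust estimation (adjusted p = 0.12, 0.083 and 0.061), and Rab1, Rab33b, Rab3a and Rab6b not without a filter (0.074, 0.11, 0.069 and 0.061). Members lower in the knockdown arm numbered 5 with a mean FPKM of 5 or more (29 members left), 5 with ribosomal scaling (13 higher), 15 with median-of-ratios scaling, 16 with quantile normalization, and 7 to 10 when a time was left out, against 12. The share of higher among all called genes was 53.9%, and 46.4%, 46.5% and 75.5% with those 3 scalings in the order median-of-ratios, quantile and ribosomal. The median arm difference of members was -0.030 without a filter, -0.022 with the stricter filter, -0.079, -0.083 and 0.028 with those scalings, and -0.080 to -0.039 without a time.

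Falling members numbered 10 with the stricter filter, and 40 with ribosomal scaling (0 rising). The median slope was -0.0029 without a filter, 0.048 with the stricter one, -0.0043, 0.030 and -0.23 with those scalings, and 0.0034 to 0.020 without a time. Without 225 min, 14 rose and 12 fell. Slopes that turned negative with ribosomal scaling were Rab11a -0.15, Rab11b -0.23, Rab13 -0.10, Rab15 -0.074, Rab18 -0.22, Rab25 -0.046, Rab28 -0.21, Rab2a -0.21, Rab2b -0.12, Rab31 -0.19, Rab34 -0.10, Rab3b -0.034, Rab3d -0.077, Rab4a -0.089, Rab4b -0.0042, Rab5c -0.083, Rab7 -0.11 and Rab8a -0.16. With quantile normalization Rab18 (-0.0059), Rab2a (-0.017) and Rab43 (0.056) changed sign. The slope difference of Rab39 was 0.09, but -0.12 with a pseudocount of 0.1 and -0.0039 to 0.18 when a time was left out (negative without 225 min); it was not called. The cause was not tested. No slope difference of a member was called under any alternative.

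Without the 9 members whose exons overlap a protein-coding gene or whose table locus holds another tested gene, a choice made after seeing the data that leaves in overlaps with non-coding or untested genes, 5 were higher and 9 lower, and 17 rose and 12 fell. The 9 were Rab10, Rab24, Rab2b, Rab3a, Rab40c, Rab43, Rab4b, Rab5a and Rab6a. No paired analysis was possible between cultures because each arm and time holds 1 combined value; the arm fit and the sign-flip test pair the arms by time.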
